A study of Mus musculus with 4 samples.

Results

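The respiratory chain of the inner mitochondrial membrane was followed gene by gene in 4 primary tumours of a mouse neuroblastoma model. Genes were chosen by their symbols alone, as subunits of complexes I to V with the related Uqcc assembly factors, and 82 such genes were found among the 22180 genes named on the array. They divide into 31 for complex I, 4 for complex II, 8 for complex III, 19 for complex IV, 17 for complex V (ATP synthase) and 3 assembly factors of complex III. Ndufa4 and its paralogue Ndufa4l2 were counted with complex IV, where the Ndufa4 protein resides, in spite of their name. A pair of pseudogenes with matching symbols was left out.

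All 4 tumours carry the same genotype, given as Alk mutant, TH-MYCN and Stat6-/-, with the strain C57BL\6 x 129Sv/J. The Alk allele is not named. The transgene expresses human MYCN from the tyrosine hydroxylase promoter, so tumours arise in the sympathetic lineage. No age or treatment is stated, and no Stat6-intact tumour was analysed here. The 4 tumours therefore form 1 group, are numbered by record order only, and the values below describe levels and the spread between tumours, with no p-value. Each array measured total RNA of 1 tumour as log2 values, in which 1 unit is a 2-fold difference. Since this is bulk RNA, fewer cells of a type and less RNA per cell cannot be told apart.

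Complex I takes electrons from NADH, and complex II, which is also an enzyme of the citric acid cycle, takes them from succinate. Both pass them through ubiquinone to complex III, which hands them to cytochrome c, and complex IV passes them on to oxygen. The proton gradient built by complexes I, III and IV drives ATP synthase. Nuclear genes encode most subunits, while a few core subunits of every complex but II are encoded in mitochondrial DNA. The 13 subunit genes of mitochondrial DNA were not analysed here, so the values concern the nuclear part of the chain. MYC proteins are known to raise transcription of many mitochondrial genes.

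Promoters of 4 genes are printed because the results turn on them: Ndufs8 and Uqcc2 had the widest ranges over the tumours, Sdhb the narrowest, and Cox6a1 is the broadly used member of an isoform pair whose muscle member was not detected. The windows are from RefSeq (GRCm38.p6) and run from 250 bases before the annotated start to 30 after it, 5′ to 3′ in the direction of the gene. Capitals mark matches, on either strand, to short core motifs of factors known to bind promoters of this gene class: GCATGCGC for NRF1, AAGATGGC for YY1, CCGGAAG for ETS factors such as GABPA, and AAGGTCA for oestrogen-related receptors.

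Ndufs8 promoter (chr19:3912745-3913024, minus strand): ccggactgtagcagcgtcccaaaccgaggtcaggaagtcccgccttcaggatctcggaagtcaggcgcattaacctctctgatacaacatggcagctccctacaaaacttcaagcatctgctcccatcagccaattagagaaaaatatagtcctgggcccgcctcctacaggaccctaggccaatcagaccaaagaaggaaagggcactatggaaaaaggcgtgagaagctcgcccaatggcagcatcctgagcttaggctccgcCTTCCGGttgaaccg
Uqcc2 promoter (chr17:27133862-27134141, minus strand): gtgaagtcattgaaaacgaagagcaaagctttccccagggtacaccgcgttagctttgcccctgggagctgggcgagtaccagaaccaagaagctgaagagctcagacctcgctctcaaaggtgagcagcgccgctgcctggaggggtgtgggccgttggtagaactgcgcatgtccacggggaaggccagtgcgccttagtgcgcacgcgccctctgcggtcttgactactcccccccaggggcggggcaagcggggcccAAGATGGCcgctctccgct
Sdhb promoter (chr4:140961021-140961300, plus strand): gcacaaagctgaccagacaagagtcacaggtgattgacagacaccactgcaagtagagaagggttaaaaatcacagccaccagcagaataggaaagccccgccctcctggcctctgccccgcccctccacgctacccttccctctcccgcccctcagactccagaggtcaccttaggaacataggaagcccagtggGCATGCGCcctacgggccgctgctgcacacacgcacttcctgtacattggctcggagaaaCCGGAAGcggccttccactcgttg
Cox6a1 promoter (chr5:115348929-115349208, minus strand): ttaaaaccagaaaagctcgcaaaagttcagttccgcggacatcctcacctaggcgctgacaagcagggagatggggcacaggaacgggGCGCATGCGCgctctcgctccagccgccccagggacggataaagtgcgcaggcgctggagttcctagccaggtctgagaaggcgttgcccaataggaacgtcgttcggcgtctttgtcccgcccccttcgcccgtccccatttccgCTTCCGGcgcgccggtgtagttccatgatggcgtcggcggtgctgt

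Sdhb and Cox6a1 each hold an NRF1 core and an ETS core. In Cox6a1 a pair of overlapping matches on opposite strands forms a palindrome. Ndufs8 holds an ETS core in the reverse direction and Uqcc2 a YY1 core, both just after the start. Over 300 bases (250 before to 50 after the start), windows were found for 67 of the 82 genes, 72 windows in all, since a gene can have several starts. An NRF1 core lay in 13.9% of them against 2.71% of all 32851 windows of the same length, a YY1 core in 13.9% against 2.75%, an ETS core in 23.6% against 8.86%, and a receptor core in 9.72% against 4.72%. No ETS match overlapped a YY1 match in a gene of the chain (0 windows). The median GC content was 57.3% in these windows and 52.7% in all windows. The 10 windows of genes under the detection floor described next held 0 NRF1, 0 ETS, 1 YY1 and 2 receptor cores. A match is a description of the sequence and does not show binding, and no match says only that these letters are not in the window.

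Signal was called present when the 4-tumour mean exceeded a background floor of 6.17, the 95th percentile of the means of 1394 olfactory and vomeronasal receptor genes. Of the 82 genes, 69 (84.1%) lay above it, against 40.5% of all genes. A gene under the floor is undetermined, not shown to be silent. Levels of different genes depend on their probes, so genes and complexes are compared only by their differences between tumours. All 4 genes of complex II and all 8 of complex III were detected, with 29 of 31 of complex I, 15 of 17 of complex V, 11 of 19 of complex IV and 2 of 3 assembly factors. The lower count in complex IV came mostly from isoforms of restricted use, of which 1 of 8 was detected, while 9 of its 10 main nuclear subunits were.

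**Figure D1:**
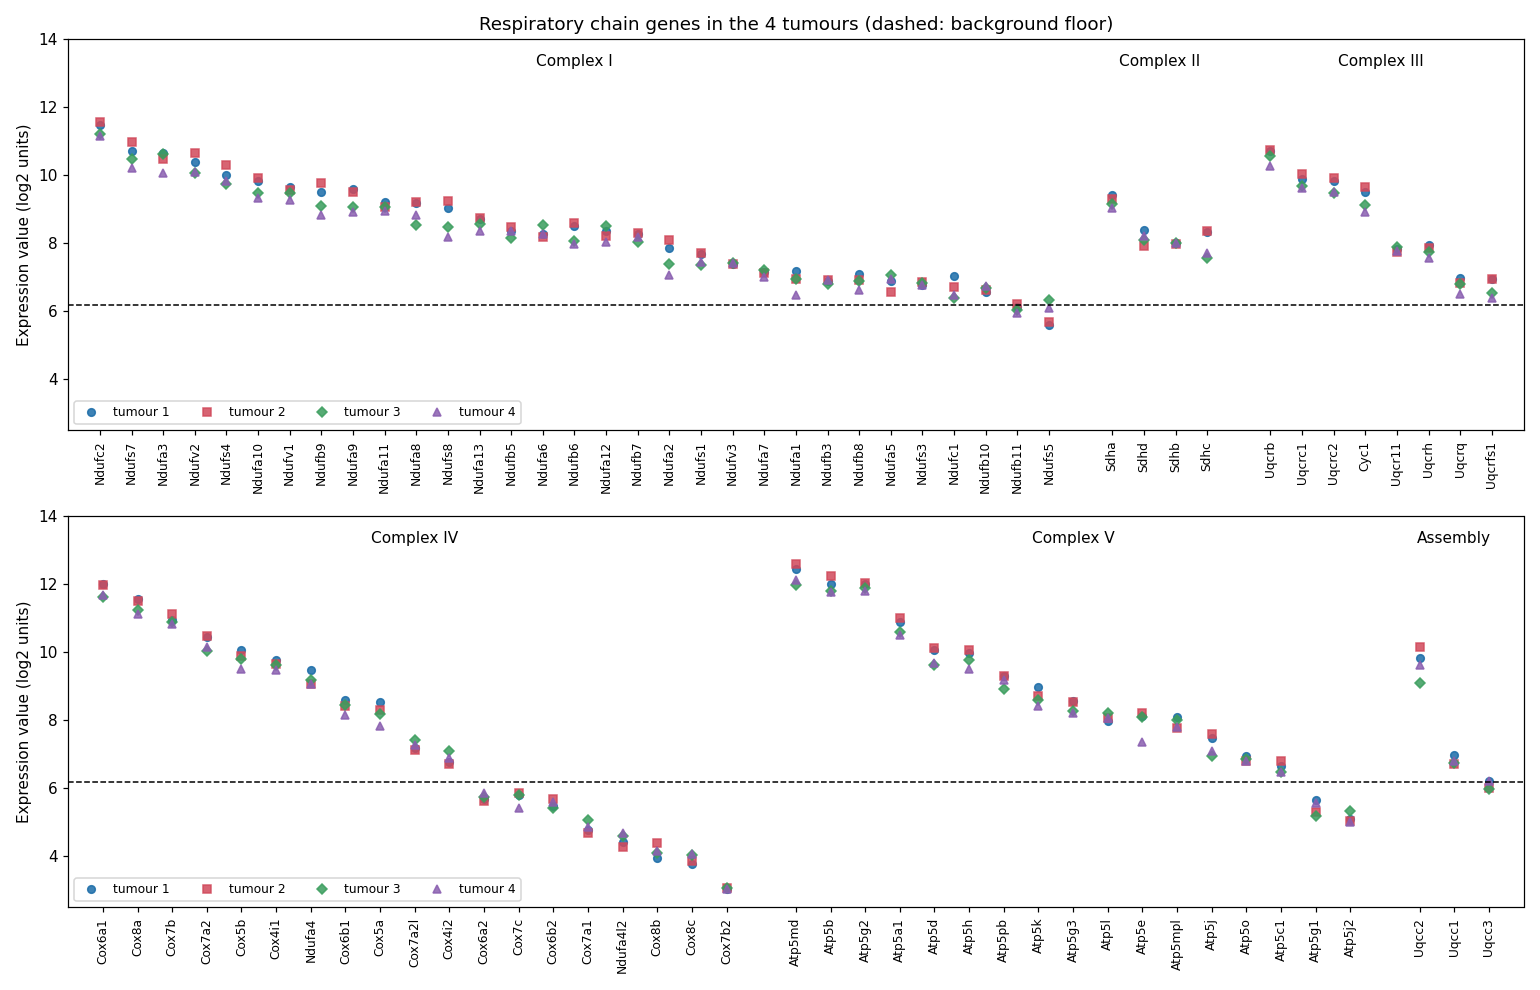
Each point is the expression value (log2 units, vertical axis) of 1 gene in 1 of the 4 tumours, with genes ordered by mean within each complex and the background floor of 6.17 dashed. The 4 tumours of a gene mostly lie within 1 log2 unit, and 8 of the 13 genes under the floor belong to complex IV. Levels of different genes are not comparable.

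The whole-series picture bears on these values in a few ways. The arrays differed slightly in scale: detected genes deviated from their own 4-tumour mean by a median of 0.12, 0.04, -0.09 and -0.08 in tumours 1 to 4, so the spread of a gene list has to be read against that of other genes. Tumour 4 had Xist at 10.13 and Eif2s3y at 3.90, against 3.89 to 3.95 and 7.47 to 7.89 in tumours 1 to 3, the pattern of a female against males, and its other differences cannot be told apart from sex. The tissue is labelled sternocleidomastoid muscle, but 0 of 12 skeletal muscle markers were detected, against 40.5% of all genes. Ckm, muscle creatine kinase, measured 4.30 ± 0.15 and Acta1, skeletal actin, 5.37 ± 0.14 (SD, n = 4). All 8 measured sympathetic tumour cell markers were detected, against the same 40.5%.

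Over the 4 tumours the chain as a whole was about as even as other genes. The median range, highest minus lowest tumour, was 0.44 log2 units over the 69 detected genes and 0.41 over all detected genes. A range of 1 unit (2-fold) or more was reached by 3 of 69 genes (4.35%), against 4.26% of all detected genes, and a range of 1.5-fold or more by 19 of 69 (27.5%), against 24.2%. Both shares lay near the background. Complex I had 12 of its 29 detected genes in that 1.5-fold group, complex II 1 of 4, complex III 1 of 8, complex IV 1 of 11 and complex V 3 of 15.

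The 3 genes past 2-fold exceeded it narrowly. Ndufs8, an iron-sulphur subunit in the matrix arm of complex I, measured 9.03, 9.22, 8.46 and 8.17 in tumours 1 to 4. Ndufa2, an accessory subunit of that arm, measured 7.86, 8.08, 7.39 and 7.05. Both were highest in tumour 2 and lowest in tumour 4. Uqcc2, which is needed to assemble cytochrome b into complex III, measured 9.82, 10.14, 9.10 and 9.63, and was lowest in tumour 3. The count rests on single tumours: it was 0 without tumour 2, 2 without tumour 3 (where the range of Uqcc2 was 0.52 in place of 1.05), 1 without tumour 4 and 0 after a further quantile normalization, where the ranges of Ndufs8, Ndufa2 and Uqcc2 were 0.89, 0.95 and 0.94.

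**Figure D2:**
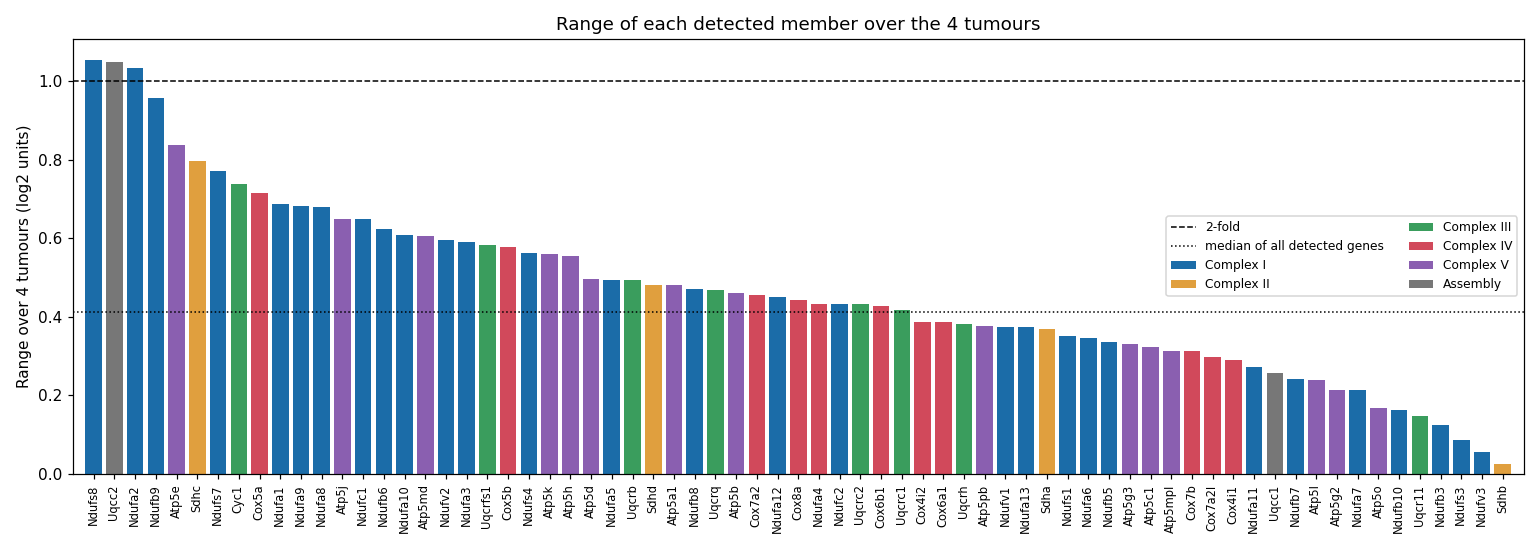
Bars give the range over the 4 tumours (log2 units, vertical axis, from 0) of each of the 69 detected genes, coloured by complex, with 2-fold dashed and the median of all detected genes (0.41) dotted. Ndufs8, Uqcc2 and Ndufa2 stand just above 2-fold, and Sdhb, at 0.02, is the most even.

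Although the ranges were ordinary, the tumours in which these genes were high and low were unevenly shared. Of the 69 detected genes, 34 (49.3%) had their highest value in tumour 2, against 26.9% of all detected genes, and 24 (34.8%) in tumour 1, against 46.6%. Only 9 were highest in tumour 3 (13.0%, against 11.0%) and 2 in tumour 4 (2.90%, against 15.5%). The lowest value fell in tumour 4 for 39 genes (56.5%, against 38.6%), in tumour 3 for 18 (26.1%, against 36.1%), in tumour 2 for 9 (13.0%, against 17.8%) and in tumour 1 for 3 (4.35%, against 7.52%). The most frequent order, from high to low, was tumour 2, 1, 3, 4, held by 17 of the 69 genes (24.6%) and by 12.5% of all detected genes. Between tumours 2 and 4 the median difference was 0.31 over the detected genes of the chain and 0.12 over all detected genes, and 58 of 69 (84.1%) were higher in tumour 2, against 64.9% of all detected genes. These shares are not matched for level: the 69 genes lay at a median percentile of 77.1 of the levels of detected genes. The arrays also differed in spread, with an SD over probe sets of 1.93 in tumour 1 and 1.84 in tumour 4.

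Each gene's deviation from its own mean was then set against genes of like level, by subtracting the median deviation of detected genes in the same of 20 bins of mean expression. The median of this relative shift over the 69 genes was 0.03 ± 0.11 in tumour 1, 0.05 ± 0.17 in tumour 2, 0.01 ± 0.16 in tumour 3 and -0.10 ± 0.15 in tumour 4 (SD over genes). In tumour 4, 51 of 69 genes were below genes of like level, and in tumour 2, 45 of 69 were above. Of all 8989 detected genes, 4489 lay above and 4489 below in each tumour by construction.

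By complex, complex III was at 0.12 ± 0.13 in tumour 2 and -0.15 ± 0.11 in tumour 4 (SD over 8 genes), with 7 of 8 genes above and 7 of 8 below genes of like level. Complex V was at 0.16 ± 0.14 in tumour 2 and -0.10 ± 0.14 in tumour 4 (SD over 15 genes). Complex I was at 0.05 ± 0.18 and -0.11 ± 0.18 in the same tumours (SD over 29 genes). Complex IV was at 0.09 ± 0.14 in tumour 1, -0.01 ± 0.12 in tumour 2, 0.09 ± 0.13 in tumour 3 and -0.05 ± 0.12 in tumour 4 (SD over 11 genes), lowest in tumour 4 like complexes I, III and V. Its sign in tumour 2 was not settled: the shift was 0.03 with all detected genes as reference and 0.03 without tumour 1. Complex II, with only 4 genes, stayed between -0.04 and 0.08. From lowest to highest tumour the shift spanned 0.27 in complex III, 0.25 in complex V, 0.17 in complex I, 0.14 in complex IV and 0.11 in complex II. The differences between complexes were not tested.

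With the floor of 6.17, the spans rest on tumours 2 and 4. Without tumour 4 they were 0.08 in complex III, 0.09 in complex I and 0.10 in complex V, and without tumour 2 they were 0.08 in complex V and 0.03 in complex II. In complex IV the span stayed between 0.12 and 0.16 whichever tumour was left out. Marker lists of other cells also differed between the tumours. The 6 detected of 8 fibroblast markers were at 0.49, -0.30, 0.16 and -0.35 in tumours 1 to 4. The 7 detected of 10 macrophage markers were all lowest in tumour 3 (shift -0.51), where 36.1% of all detected genes were lowest. The 8 measured sympathetic tumour cell markers were at -0.21 in tumour 2 and 0.25 in tumour 4. The 3 detected of 10 pericyte and smooth muscle markers had the signs of complexes III and V in those tumours, with 0.24 in tumour 2 and -0.31 in tumour 4. Their part in the shifts of the respiratory chain was not tested.

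**Figure D3:**
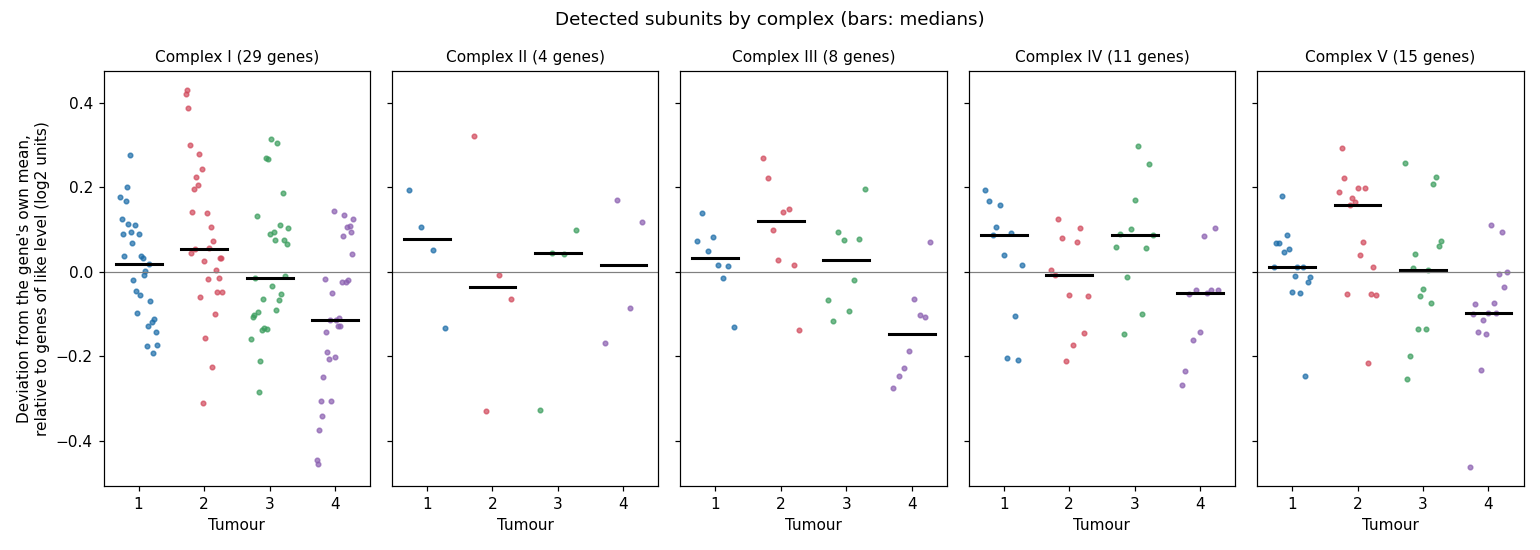
Points are detected genes of complexes I to V, plotted by tumour (horizontal axis) at their deviation from the gene's own 4-tumour mean relative to genes of like level (log2 units, vertical axis), with black bars for medians. The medians of complexes I, III and V are highest in tumour 2 and lowest in tumour 4, and points of every complex lie on both sides of 0.

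Among the core subunits of complex I, which carry the flavin and the iron-sulphur clusters, all 6 measured genes were detected. Of these, 5 of 6 were highest in tumour 2, against 26.9% of all detected genes. Ndufs7, which holds the cluster next to the ubiquinone site, measured 10.71, 10.96, 10.46 and 10.19 in tumours 1 to 4, the same order as its neighbour in the protein, Ndufs8. Ndufv2 of the NADH-oxidising module measured 10.37, 10.66, 10.06 and 10.10. Ndufv1, which binds NADH and flavin, was the core subunit that was not highest in tumour 2, with 9.64, 9.55, 9.47 and 9.27. Ndufs1, the largest iron-sulphur subunit, measured 7.55 ± 0.18 and Ndufs3, a core subunit of the matrix arm, 6.80 ± 0.04 (SD, n = 4). Core subunits thus ranged from just past 2-fold (Ndufs8) to 0.09 log2 units (Ndufs3). The relative shift of the 6 core genes was 0.19 ± 0.17 in tumour 2 and -0.11 ± 0.18 in tumour 4, and that of the 23 detected accessory genes 0.04 ± 0.18 and -0.11 ± 0.18 (SD over genes).

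Accessory subunits of complex I surround that core and are needed to assemble and stabilise it. Ndufb9, of the membrane arm, measured 9.51, 9.77, 9.09 and 8.82 in tumours 1 to 4, short of 2-fold and in the order of Ndufs8. Ndufa9, which lies near the ubiquinone site, ran from 8.90 in tumour 4 to 9.58 in tumour 1. Ndufa8 was instead lowest in tumour 3, at 8.53 against 8.81 to 9.21. Ndufs4, whose loss causes Leigh syndrome, measured 10.01, 10.29, 9.73 and 9.83. Some genes went against the common order: Ndufa5, of the matrix arm, had its minimum of 6.56 in tumour 2 and its maximum of 7.05 in tumour 3. For Ndufa6 these were 8.17 and 8.51, in the same tumours. Ndufv3 measured 7.40 ± 0.02 (SD, n = 4) and was the most even gene of the complex, with all tumours between 7.37 and 7.43.

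Below the floor in complex I were Ndufb11 and Ndufs5. Ndufb11, an accessory subunit of the membrane arm, measured 6.12, 6.20, 6.04 and 5.95 in tumours 1 to 4, so only tumour 2 passed it. Ndufs5 measured 5.58, 5.68, 6.32 and 6.09, so only tumour 3 passed it. Among detected genes of the complex, Ndufb10 (6.65 ± 0.07) and Ndufc1 (6.66 ± 0.29; SD, n = 4) lay nearest above it. A value under the floor says only that the probe set did not rise clearly above receptor genes.

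All 4 subunits of complex II were detected, and they differed in evenness. Sdhc, a membrane anchor that binds haem, measured 8.32, 8.36, 7.57 and 7.71 in tumours 1 to 4, with tumours 3 and 4 lower. Sdhd, the other anchor, measured 8.39, 7.91, 8.10 and 8.20 and was lowest in tumour 2, where Sdhc was highest. Sdha, which carries the flavin and oxidises succinate, lay between 9.03 in tumour 4 and 9.40 in tumour 1. Sdhb, the iron-sulphur subunit, measured 7.992, 7.975, 7.991 and 7.999. The anchors are thus without a common order, and Sdhb had the smallest range of the 69 genes, 0.02. That evenness depends on the scale of the arrays: the range of Sdhb was 0.16 after a further quantile normalization and 0.13 with array medians equalised.

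In complex III the catalytic subunits varied most. Cyc1, cytochrome c1, measured 9.50, 9.66, 9.13 and 8.92 in tumours 1 to 4. Uqcrfs1, the Rieske iron-sulphur protein, measured 6.96, 6.93, 6.53 and 6.37. Both were lowest in tumour 4. Of the large core proteins, Uqcrc1 ran from 9.62 in tumour 4 to 10.04 in tumour 2 and Uqcrc2 from 9.47 in tumour 3 to 9.90 in tumour 2. Among small subunits, Uqcrb spanned 10.25 to 10.74, Uqcrq 6.51 to 6.97 and Uqcrh 7.56 to 7.94, each lowest in tumour 4, while Uqcr11 was the most even at 7.81 ± 0.07 (SD, n = 4) and highest in tumour 3. Beside them, the assembly factor Uqcc1 measured 6.80 ± 0.12, and Uqcc3 lay under the floor at 6.09 ± 0.13 (SD, n = 4) with 2 of 4 tumours above it.

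Of the main subunits of complex IV, Cox5a, on the matrix side, varied most, with 8.53, 8.30, 8.17 and 7.82 in tumours 1 to 4. Cox5b, which binds zinc, followed the same order with 10.07, 9.89, 9.80 and 9.49. Of the 9 detected main subunits, 7 were highest in tumour 1 (77.8%, against 46.6% of all detected genes). Likewise 7 were lowest in tumour 4 (77.8%, against 38.6%). Complexes I and V were more often highest in tumour 2 (16 of 29 and 10 of 15 genes, against 26.9% of all detected genes). Ndufa4 measured 9.48, 9.07, 9.18 and 9.05, so that tumour 1 stood above the rest. Cox4i1 was the most even main subunit, at 9.63 ± 0.12 (SD, n = 4). Cox7c was the one main subunit under the floor, with 5.80, 5.85, 5.81 and 5.41, the lowest in tumour 4. Cox6c, like Ndufb2, Ndufb4, Ndufs6 and Uqcr10, was annotated only on probe sets shared with another gene and was not analysed here.

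Complex IV and ATP synthase have subunits encoded by more than 1 gene. Of 19 such genes 11 were above the floor, against 40.5% of all genes. In each set of complex IV the broadly used form was above the floor. Cox6a1 measured 11.99, 11.96, 11.61 and 11.68 in tumours 1 to 4, while Cox6a2, its heart and skeletal muscle form, measured 5.68, 5.62, 5.75 and 5.85. The other muscle forms were also under the floor, Cox7a1 at 4.84 ± 0.16 and Cox8b at 4.14 ± 0.18 (SD, n = 4). Their broad forms were above it in all 4 tumours, Cox7a2 at 10.27 ± 0.23 and Cox8a at 11.35 ± 0.22 (SD, n = 4). The 3 muscle forms were thus low together with the 12 muscle markers. The testis forms Cox6b2 and Cox8c measured 5.54 ± 0.12 and 3.92 ± 0.14, and Cox7b2 3.05 ± 0.02, while Cox6b1 and Cox7b were detected at 8.39 ± 0.18 and 10.94 ± 0.13 (SD, n = 4). Brown fat also uses Cox7a1 and Cox8b. Of 5 brown adipocyte markers 0 passed the floor, against 40.5% of all genes, with Ucp1, the uncoupling protein, at 4.82 ± 0.05 (SD, n = 4).

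Cox4i2 was the exception among restricted forms. This alternative form of Cox4i1, known from lung and pericytes and induced by low oxygen, measured 6.78, 6.70, 7.09 and 6.89 in tumours 1 to 4. It was above the floor in all 4 tumours, highest in tumour 3 and lowest in tumour 2, but below the stricter floor of 7.14 in all of them, set at the 99th percentile of receptor genes. Ndufa4l2, another gene induced by low oxygen and found in pericytes, stayed under the floor at 4.48 ± 0.18 (SD, n = 4). Of 10 pericyte and smooth muscle markers 3 were detected (30%, against 40.5% of all genes). These were Rgs5, Acta2 and Pdgfrb, and their orders differed. Rgs5 ran from 9.30 in tumour 2 to 8.21 in tumour 4 and Acta2 from 8.02 to 7.28 in the same tumours, while Pdgfrb, like Cox4i2, was highest in tumour 3 (6.34). Abcc9, under the floor, had the order of Cox4i2 with 5.81, 5.75, 5.97 and 5.88, and Notch3 and Higd1b, also under it, were highest in tumour 3. Kcnj8, another pericyte marker, was under the floor at 4.43 ± 0.07 (SD, n = 4) and lowest in tumour 3. Cspg4 and Myh11, also under the floor, were lowest in tumour 3 too (5.92 and 4.85), and Tagln, under it as well, was highest in tumour 2 (5.84). The markers under the floor thus had no common order. The part of pericytes in the level of Cox4i2 was not tested. Cox7a2l, which joins complexes III and IV into supercomplexes, had the same order as Cox4i2, with 7.17, 7.13, 7.42 and 7.27.

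**Figure D4:**
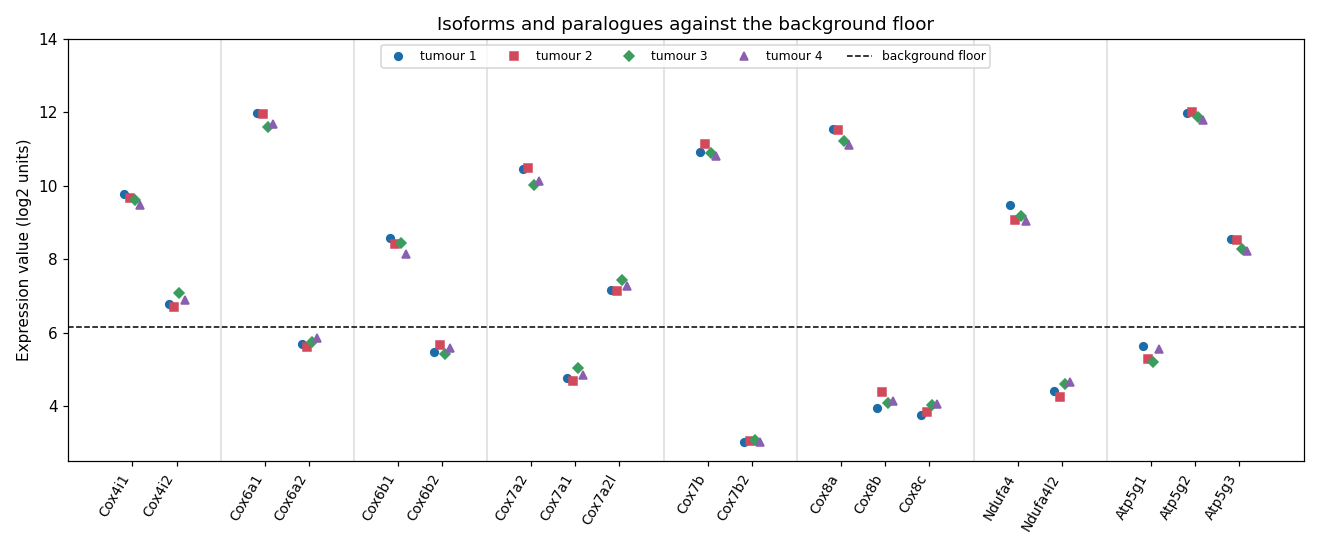
Values (log2 units, vertical axis) in the 4 tumours are drawn for 8 sets of genes that encode forms of the same subunit, with the background floor of 6.17 dashed. Of the 8 restricted forms only Cox4i2 (6.70 to 7.09) lies above the floor, and Atp5g1, of the 3 genes for subunit c, lies below it (5.19 to 5.64).

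The catalytic head of ATP synthase, F1, was detected in full. By the probe sets used, all 5 of its genes were highest in tumour 2, against 26.9% of all detected genes. Atp5a1 and Atp5b, the alpha and beta subunits where ATP is made, ran from 10.51 in tumour 4 to 10.99 and from 11.77 in tumour 4 to 12.23. Atp5c1, the rotating gamma subunit, spanned 6.46 to 6.78, and Atp5d, the delta subunit, 9.63 to 10.12. Relative to genes of like level, the 5 genes were at 0.19 ± 0.01 in tumour 2 and -0.11 ± 0.16 in tumour 4 (SD over genes), and the 10 detected genes of the membrane part and stalk at 0.03 ± 0.15 and -0.05 ± 0.10. By these probe sets, F1 genes thus lay close together in tumour 2, and the other genes of the enzyme did not. For Atp5e this rests on the brighter of its probe sets, as the weaker was highest in tumour 3 (7.21, against 7.18 in tumour 2). Averaging the probe sets of each gene gave complex V a shift of 0.08 in tumour 2, in place of 0.16.

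Atp5e, the small epsilon subunit of F1, had the widest range of complex V through 1 tumour, with 8.11, 8.20, 8.08 and 7.36 in tumours 1 to 4. It had another probe set, which measured 7.18, 7.18, 7.21 and 7.18 and showed no drop in tumour 4. The values of that probe set in tumours 1, 2 and 4 were identical, so whether it can register a drop is not known. Averaging both probe sets gave a range of 0.42, and without tumour 4 the range of Atp5e was 0.12, against 0.84. Atp5e was the 1 detected gene of 69 in which a single tumour stood apart by Dixon's criterion for a gap, met by 3.83% of all detected genes. Of the stalk that holds the head still, Atp5j (F6) ran from 6.93 in tumour 3 to 7.58 in tumour 2, Atp5h (subunit d) from 9.50 to 10.06, Atp5pb (subunit b) from 8.91 to 9.29, and Atp5o, the link between head and stalk, from 6.78 to 6.95. Atp5o was the most even gene of the complex. In the membrane, Atp5md, which helps ATP synthase form dimers, ran from 11.98 in tumour 3 to 12.59 in tumour 2, and Atp5k (subunit e) from 8.41 in tumour 4 to 8.97 in tumour 1.

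The rotor ring of ATP synthase is built from subunit c, which 3 genes encode as the same mature protein with different import sequences. Atp5g2 and Atp5g3 were detected and even, at 11.92 ± 0.10 and 8.39 ± 0.17. Atp5g1 was under the floor in all 4 tumours, with 5.64, 5.29, 5.19 and 5.56. Atp5j2 (subunit f) was the other gene of the complex under the floor, at 5.11 ± 0.15 (SD, n = 4).

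For 9 genes the annotation named a pair of probe sets, of which the brighter was used. In 5 of them both lay above the floor. In Ndufa8, as in Atp5g2, these had the same order of tumours, the weaker at 7.45, 7.59, 6.94 and 7.06. In Ndufa12 they did not: the brighter was lowest in tumour 4 (8.04) and the weaker highest there (6.78). In the other 4 genes only the brighter was above the floor, so that their detection rests on it: the weaker measured 4.50 ± 0.21 for Cox5b, 4.76 ± 0.17 for Cox7b, 5.54 ± 0.45 for Ndufa11 and 6.15 ± 0.17 for Atp5h (SD, n = 4). Many genes of the chain have processed pseudogenes, and whether a probe set also reads such copies was not tested.

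The 82 genes lie on 19 chromosomes. The X chromosome carries 3 of them, Ndufa1, Ndufb11 and Cox7b, each of which was lowest in tumour 4. Ndufa1, a membrane arm subunit needed for assembly of complex I, measured 7.17, 6.94, 6.94 and 6.48 in tumours 1 to 4, and Cox7b 10.93, 11.13, 10.89 and 10.81. Of all detected genes on X, 28.2% were lowest in tumour 4, as were 56.5% of the detected genes of the chain wherever they lay.

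Genes around the respiratory chain, from lists of related function, were described in the same way. Of the assembly factors for complexes I to V, 32 of 39 measured were detected (82.1%, against 40.5% of all genes). A 2-fold range was reached by 0 of 32, against 4.26% of all detected genes. Their relative shift was 0.10 ± 0.14 in tumour 2 and -0.12 ± 0.15 in tumour 4 (SD over genes). The lowest value fell in tumour 4 for 23 of 32 (71.9%, against 38.6% of all detected genes). Atpaf2, a chaperone of F1, measured 8.10, 7.98, 7.40 and 7.26 in tumours 1 to 4, and Sdhaf1, which helps insert iron-sulphur clusters into Sdhb, 7.60, 7.78, 7.10 and 6.95, although Sdhb itself was even. Ndufaf1, a complex I factor, spanned 6.55 to 7.30, and Coa6, a complex IV factor, was the most even at 6.76 ± 0.04 (SD, n = 4).

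In tumours 2 and 4 the shifts of the citric acid cycle had the same signs as those of the respiratory chain. All 12 measured genes were detected, against 40.5% of all genes, and 11 of 12 were lowest in tumour 4 (91.7%, against 38.6% of all detected genes). Their relative shift was 0.12 ± 0.12 in tumour 2 and -0.16 ± 0.10 in tumour 4 (SD over genes). Idh3a, of the NAD-dependent isocitrate dehydrogenase, measured 8.42, 8.65, 8.28 and 7.85, and Suclg2, of succinyl-CoA ligase, 7.22, 7.42, 6.99 and 6.64. Fh1, fumarase, ran from 8.73 in tumour 4 to 9.38 in tumour 2, and Sucla2 was the most even, from 7.60 to 7.88. Of the electron carriers and ubiquinone genes, 13 of 17 measured were detected (76.5%, against 40.5% of all genes). Their shifts were 0.11 ± 0.12 in tumour 2 and -0.08 ± 0.17 in tumour 4. Among them Etfb, of the electron transfer flavoprotein, spanned 7.84 to 8.46, Coq5 7.98 to 8.54 and Coq10b 6.04 to 6.52. Cycs, cytochrome c, spanned 10.16 to 10.44, and Coq7, of ubiquinone synthesis, was the most even at 6.28 ± 0.06 (SD, n = 4). Coq7 lay just above the floor of 6.17, and Coq10b was under it in tumours 3 and 4.

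Regulators of mitochondrial biogenesis varied unequally. Of 18 measured, 14 were detected (77.8%, against 40.5% of all genes). A 2-fold range was reached by 2 of the 14 (14.3%, against 4.26% of all detected genes), both of them factors for mitochondrial ribosomal RNA or transcription. Tfb1m, which methylates mitochondrial ribosomal RNA, measured 7.62, 8.06, 7.26 and 6.90 in tumours 1 to 4. Tfb2m, the partner of the mitochondrial RNA polymerase, measured 7.62, 7.21, 7.05 and 6.56, and Tfam, which packages mitochondrial DNA, 7.15, 6.76, 6.90 and 6.44. All 3 were lowest in tumour 4. The nuclear factors whose motifs were searched were detected and varied less than these 3. Nrf1 measured 7.27 ± 0.15, Gabpa 7.46 ± 0.25, Yy1 8.97 ± 0.12 and Esrra 6.87 ± 0.14 (SD, n = 4). The SD of Gabpa was above 0.19, the median of all detected genes. Relative to genes of like level, Gabpa was at 0.14 in tumour 2 and -0.17 in tumour 4, and Nrf1 at 0.13 and -0.09. Yy1 (-0.04 and 0.02) and Esrra (-0.15 and 0.24) had the opposite signs, and Esrra was highest in tumour 4. Twnk, the mitochondrial helicase, was the most even at 6.29 ± 0.07, just above the floor. The coactivator Ppargc1a was under the floor in the mean, with 6.39 and 6.54 in tumours 1 and 2 and 5.57 and 5.76 in tumours 3 and 4.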

How the data were processed

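Total RNA of 4 primary tumours was measured on 1-colour Affymetrix arrays, 1 per tumour. The values are deposited log2 expression values per probe set, made by the authors with RMA and Partek per the submitters' processing notes, with no versions or settings. The log base is not stated and was taken as log2 from the range of the values. No further normalization was applied in the main analysis. Tumours were numbered by accession order, which pairs nothing. The labels do not say that each tumour came from its own animal, and the sex-linked genes show at least 2 animals, so an SD may be partly technical. The 4 arrays limit its precision. Of 41345 probe sets, 23521 were named for 1 gene by the platform annotation. Symbols were updated through Entrez identifiers with RefSeq (GRCm38.p6), and the probe set with the highest mean stood for a gene. Relative shifts were computed with Python 3.11.15 and pandas 2.3.3 and checked on simulated arrays. The shifts checked there were larger than any shift of a complex reported here, so the check does not cover shifts of the reported size. The genes, lists and the rule for named genes (the widest and the most even genes of each complex and list, isoforms, core subunits, genes under the floor, on X or with several probe sets) were chosen with earlier results of these data known. Ndufa5, Ndufa6, Ndufa9, Ndufb10, Ndufc1, Ndufs4, Atp5k, Atp5pb, Uqcrq, Cycs and Ppargc1a fall outside the rule and were named after their values were seen. The same holds for the single cell type markers and the factors whose motifs were searched. Erythroid markers were not analysed here. Alternatives for the floor, probe set choice, normalization, reference genes, summary and left-out tumours were tried, with effects given in the closing section.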

Additional observations from a re-analysis of the deposited data

Results flagged for a closer look

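Atp5e stood out because tumour 4 lay far from the others: the gap between it and its nearest neighbour made up 0.856 of the whole range of 0.84 log2 units, above Dixon's 95% critical value for 4 samples. Its other probe set spanned 0.03 log2 units and did not set tumour 4 apart. That probe set gave identical values in tumours 1, 2 and 4, whereas at most 0.215% of values were equal between any 2 arrays. Whether it can register a drop is therefore not known. Cox7c, under the background floor in every tumour, was set apart in the same way, with tumour 4 at 5.41 against 5.80 to 5.85 and a gap of 0.882 of the range. Such gaps occur by chance in about 1 of 20 groups and were found in 3.83% of all detected genes.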

How the results depend on the processing

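The count of genes above the floor was 55 under a stricter floor (99th percentile of receptor genes), 80 under their median as floor, 70 without tumour 4 and 69 under the other alternatives tried. The number with a 2-fold range was 0 after a further quantile normalization, 4 with array medians equalised, and 0 to 3 with single tumours left out. At 1.5-fold it was 19. The median floor let 17 of 19 isoform genes pass. It gave a span of the relative shift of 0.129 for complex V, below the 0.156 of complex I. The 99th percentile gave 0.256 for complex I, above the 0.213 of complex III, so the order of the complexes by span was not kept. With means over genes in place of medians, complex II in tumour 3 was at -0.035. Leaving out single tumours gave spans of 0.085 to 0.157 for complex I, 0.033 to 0.126 for complex II, 0.082 to 0.257 for complex III and 0.083 to 0.234 for complex V. It gave shifts of 0.025 to 0.080 for complex II in tumour 1, -0.0078 to 0.063 for complex II in tumour 3, and -0.090 to 0.027 for complex IV in tumour 2. Of the 20 shifts (5 complexes in 4 tumours), 3 changed sign with all detected genes as reference, 3 with means over genes, and 0 under either normalization. Of the 15 shifts left without a tumour, 5 changed sign without tumour 4, 3 without tumour 2, and 1 each without tumours 1 and 3. The causes were not tested. No paired analysis was possible because all tumours form 1 group. Signal near the floor limits what can be said of Ndufb11, Ndufs5, Uqcc3, Coq7, Coq10b and Twnk.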
